A study of Mus musculus with 8 samples.

Results

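The genes described here are 10 genes whose human counterparts are mutated in retinitis pigmentosa, the inherited loss of rod and then cone photoreceptors, and whose products serve general tasks of the cell rather than light detection. They were taken by name from the deposited gene tables, which hold 54532 genes, and all 10 passed the filter on low counts. Of these, 5 encode proteins of the U4/U6.U5 tri-snRNP of the spliceosome (Prpf3, Prpf6, Prpf8, Prpf31 and Snrnp200), and Rp9 encodes a nuclear speckle protein linked to splicing. The other 4 are grouped here as photoreceptor-enriched (Impdh1, Fam161a, Cerkl and Reep6). Cerkl was far less abundant than Impdh1, Fam161a and Reep6, as given below. Its profile across libraries was also nearer to Prpf3, Snrnp200 and Prpf8 than to any of these.

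The samples were retinas of rd10 mice, which carry a mutation of Pde6b, the gene of a rod phosphodiesterase subunit, in both groups. Retinas titled sIVs, for small intracellular vesicles, gave 4 libraries (2 to 5), and control retinas titled PBS, which usually means phosphate-buffered saline, gave 4 (1 to 4). Neither the vesicles' source, dose and route nor the age, sex and sampling time of the mice appear in the labels. They also do not say whether each library is 1 animal. The p-values therefore reflect variation among these libraries only, which may be technical. Library totals ran from 15039385 to 16989737 counts in sIVs and from 14640235 to 15948291 counts in PBS.

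The spliceosome removes introns in every cell, and the tri-snRNP is the preassembled particle that joins it before catalysis. PRPF8 lies at its catalytic centre, SNRNP200 is the helicase that unwinds the U4 and U6 RNAs, PRPF3 and PRPF31 hold the U4/U6 part together, and PRPF6 bridges U4/U6 with U5. Although the particle is needed in all tissues, inherited defects of these proteins in humans mainly damage the retina. The comparison set ubiquitous splicing genes against photoreceptor-enriched genes of the same disease in sIVs and PBS retinas.

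Libraries sIVs 3 and sIVs 4 stood apart from the other 6 in photoreceptor transcripts. The summed level of 13 rod markers was 38099, 8603, 8103 and 30272 CPM (counts scaled to the adjusted library size) in sIVs libraries 2 to 5, against 33552 to 40593 CPM in PBS. The summed level of 12 cone markers was 1562 to 2082 CPM in sIVs and 2246 to 2769 CPM in PBS. Microglial markers (15 genes) summed to 222.1 to 684.9 CPM in sIVs and 226.4 to 363 CPM in PBS, with both values above PBS in sIVs libraries 3 and 4. Reactive glia markers (8 genes) summed to 904.4 to 2065 CPM in sIVs and 406.3 to 903.6 CPM in PBS. Endothelial markers (5 genes) summed to 277.9, 571.1, 575.5 and 253.7 CPM in sIVs libraries 2 to 5 and 287.1 to 333.3 CPM in PBS. Erythroid markers (5 genes) summed to 41.4, 26.9, 23.3 and 47.9 CPM in sIVs libraries 2 to 5 and 38.2 to 54.2 CPM in PBS. Lens markers (5 genes) summed to at most 1.10 CPM in sIVs and 4.23 CPM in PBS. Bipolar cell markers (11 genes) summed to 1814, 2223, 2225 and 1674 CPM in sIVs libraries 2 to 5 and 1739 to 1984 CPM in PBS. Mueller glia markers (8 genes) summed to 2743 to 4586 CPM in sIVs and 3947 to 5025 CPM in PBS. Amacrine cell markers (6 genes) summed to 798.1 to 899.4 CPM in sIVs and 844.5 to 971.5 CPM in PBS. Pde6b, mutated in rd10, stood at 1839, 406.1, 386.5 and 1558 CPM in sIVs libraries 2 to 5 and at 1563 to 1744 CPM in PBS. Opn1sw, the short-wave cone opsin gene, stood at 319.2, 55.4, 65.2 and 189.4 CPM in sIVs libraries 2 to 5, all below the PBS range of 379.4 to 469 CPM. Ganglion cell markers (8 genes) summed to 974.6 to 1056 CPM in sIVs and 1045 to 1339 CPM in PBS. Pigment epithelium markers (8 genes) summed to 28.2 to 86.6 CPM in sIVs and 39.8 to 171 CPM in PBS, highest in PBS library 3. No marker on these lists was at 0 in all libraries. Results are therefore also given without sIVs libraries 3 and 4. In bulk retina, fewer cells of a type and less RNA per cell cannot be told apart.

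The genes covered a wide range of levels, given here in FPKM (counts scaled to exonic length and library size), the only scale on which genes are compared. In PBS retinas Reep6 was highest at 196.3 ± 15.3 FPKM, followed by Impdh1 at 152.7 ± 4.27 FPKM (SD, n = 4 each). Next came Prpf8 at 57.9 ± 2.02, Fam161a at 52.5 ± 2.77, Snrnp200 at 31 ± 1.08 and Prpf6 at 21.6 ± 0.345 FPKM in PBS (SD, n = 4 each). Cerkl, Prpf31, Rp9 and Prpf3 lay between 6.31 and 10.3 FPKM on average in PBS. Each of the first 6 genes was separated from the next by non-overlapping PBS libraries, whereas Cerkl overlapped Prpf31 and Rp9 overlapped Prpf3. In sIVs retinas Impdh1, at 110.9 ± 52.8 FPKM, and Reep6, at 107.8 ± 73.1 FPKM, were no longer separated (SD, n = 4 each), and Prpf31, at 10.3 ± 0.999 FPKM, averaged above Cerkl, at 9.75 ± 3.92 FPKM. FPKM uses the full annotated exonic length, so genes with unused exons are understated.

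**Figure D1:**
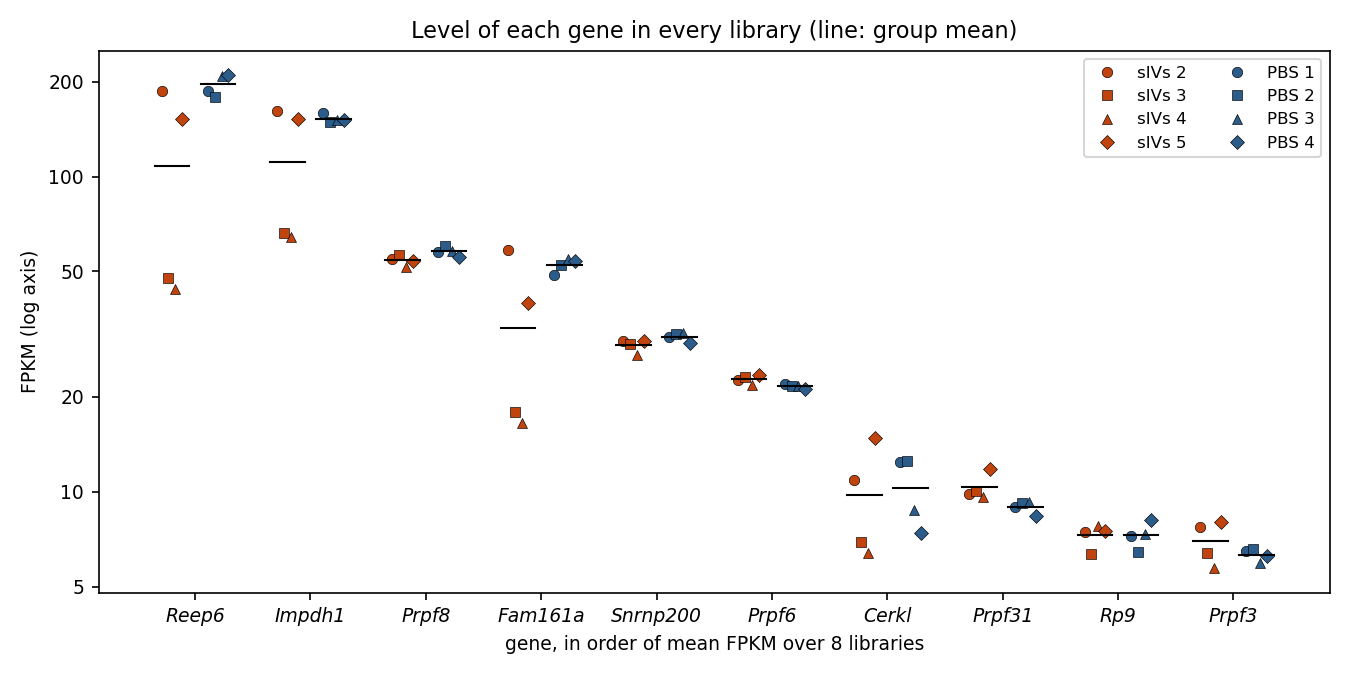
Deposited FPKM (log axis) of each gene in every library, sIVs to the left of PBS, with a line at each group mean, in order of the mean over 8 libraries. Reep6, Impdh1 and Fam161a lie at 44, 64.1 and 16.5 FPKM in sIVs library 4, while Prpf8, Snrnp200 and Prpf6 stay within a narrow band in every library.

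Promoters of 4 tri-snRNP genes are shown beside those of 2 photoreceptor-enriched genes, whose levels differed in how they varied between libraries. RefSeq promoter windows (GRCm38.p6, 250 bases before to 50 after a start) were found for 8 of the 10 genes. Reep6 and Rp9 had no window, so these 2 were not searched for any motif. Capitals mark exact matches, on either strand, to CCGGAA (the core bound by ETS factors), CCAAT (the NF-Y box), TAATCC (bound by CRX-type homeodomain proteins) or TGCTGA (part of the element that MAF-type factors such as NRL bind). Only the bases before the start that lie outside annotated exons are printed, 5′ to 3′ in the direction of the gene.
Snrnp200, chr2:127208281-127208385, plus strand: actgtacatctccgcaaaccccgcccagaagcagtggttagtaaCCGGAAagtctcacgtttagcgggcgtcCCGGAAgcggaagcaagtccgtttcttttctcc
Prpf6, chr2:181601069-181601315, plus strand: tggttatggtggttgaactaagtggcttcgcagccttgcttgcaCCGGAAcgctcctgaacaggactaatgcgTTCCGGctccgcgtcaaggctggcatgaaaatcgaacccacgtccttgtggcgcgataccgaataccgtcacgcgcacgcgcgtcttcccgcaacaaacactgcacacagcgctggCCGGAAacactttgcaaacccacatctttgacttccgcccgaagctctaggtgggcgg
Prpf31, chr7:3629930-3629984, plus strand: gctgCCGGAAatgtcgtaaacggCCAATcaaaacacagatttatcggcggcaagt
Prpf8, chr11:75486527-75486776, plus strand: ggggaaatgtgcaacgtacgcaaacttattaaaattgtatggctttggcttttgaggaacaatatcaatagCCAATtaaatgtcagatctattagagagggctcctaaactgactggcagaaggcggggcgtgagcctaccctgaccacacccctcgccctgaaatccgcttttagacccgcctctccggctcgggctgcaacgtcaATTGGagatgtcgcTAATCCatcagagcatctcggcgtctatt
Impdh1, chr6:29216365-29216614, minus strand: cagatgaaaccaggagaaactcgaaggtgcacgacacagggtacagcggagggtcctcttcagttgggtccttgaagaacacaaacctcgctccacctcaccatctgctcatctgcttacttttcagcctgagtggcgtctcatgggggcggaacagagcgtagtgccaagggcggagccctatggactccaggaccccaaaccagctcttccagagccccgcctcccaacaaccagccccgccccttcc
Fam161a, chr11:23008097-23008346, plus strand: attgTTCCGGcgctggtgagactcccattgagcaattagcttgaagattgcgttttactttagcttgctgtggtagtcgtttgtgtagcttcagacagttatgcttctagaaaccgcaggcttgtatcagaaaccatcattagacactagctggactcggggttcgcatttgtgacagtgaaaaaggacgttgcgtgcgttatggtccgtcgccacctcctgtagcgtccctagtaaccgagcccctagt
A gene was counted if any of its windows held a motif, while the shares of all windows are per window, so the counts are not directly comparable. Impdh1 and Fam161a each had another window, not shown, and that of Fam161a held no CCGGAA before its start. CCGGAA was in a window of 5 genes, Prpf3, Prpf6, Prpf31, Snrnp200 and Fam161a, and in 14.9% of all 32851 windows. Prpf6 held it 3 times and Snrnp200 2 times in the bases shown. TAATCC was in the window of Prpf8 and of no other gene searched, against 7.06% of all windows. TGCTGA was in a window of Impdh1, but not within the bases before a start, against 19.5% of all windows. CCAAT was in the windows of Cerkl, Prpf31 and Prpf8, against 37.4% of all windows. The Impdh1 bases shown hold none of the 4 motifs. A match of letters in a short window is a description only.

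Transcripts of the tri-snRNP genes differed little between sIVs and PBS retinas, and no gene of the 10 passed the edgeR quasi-likelihood test after Benjamini-Hochberg adjustment over 17725 genes. No gene of the whole table passed either (0 of 17725, or 0%, in each direction), with 2702 genes at an unadjusted p below 0.05. DESeq2 called 447 genes higher and 89 lower, limma-voom 0, and neither called any of the 10. At an unadjusted p below 0.05, 1 of the 10 was higher in sIVs, against 9.61% of all tested genes, and 0 of the 10 were lower, against 5.63%.

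Prpf31, which encodes a U4/U6 protein, was that gene. It stood at 9.86, 10.1, 9.59 and 11.8 FPKM in sIVs libraries 2 to 5, against 8.94, 9.18, 9.29 and 8.38 FPKM in PBS libraries 1 to 4. Every sIVs library was above every PBS library, and sIVs library 5 was highest. The log2 fold change was 0.21 ± 0.08 (SE, adjusted p = 0.279 by edgeR), and 0.27 ± 0.09 without sIVs libraries 3 and 4 (SE, adjusted p = 0.248 by edgeR). Among all tested genes, 4.42% had all sIVs libraries above all PBS libraries, against 1 of the 10. A noncoding gene on the opposite strand, Gm15927, shares 984 exonic bases with Prpf31 (18.1% of its exonic length) and averaged 1.49 CPM in sIVs and 2.20 CPM in PBS. The labels do not say whether reads were counted by strand.

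Prpf3, which encodes another U4/U6 protein, varied more. It was measured at 7.72, 6.38, 5.72 and 8.03 FPKM in sIVs libraries 2 to 5 and at 6.50, 6.56, 5.94 and 6.23 FPKM in PBS libraries 1 to 4. Libraries sIVs 2 and sIVs 5 were above all PBS libraries and sIVs 4 was below them, so the groups overlapped. Its log2 fold change was 0.14 ± 0.11 (SE, adjusted p = 0.575 by edgeR), and 0.31 ± 0.09 without sIVs libraries 3 and 4 (SE, adjusted p = 0.209 by edgeR). It was 0.09 without sIVs library 2 and 0.06 without sIVs library 5.

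Prpf6, the gene of the bridging protein, was the steadiest of the 10. Its levels were 22.6, 23.2, 21.9 and 23.4 FPKM in sIVs libraries 2 to 5, against 22, 21.6, 21.7 and 21.2 FPKM in PBS libraries 1 to 4. In sIVs, 3 of 4 libraries exceeded the highest PBS library, by a small margin. The log2 fold change was 0.07 ± 0.06 (SE, adjusted p = 0.568 by edgeR).

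Prpf8 and Snrnp200, which encode the large U5 proteins at the centre of the particle, had slightly negative fold changes. Prpf8 stood at 54.7, 56.5, 51.8 and 54 FPKM in sIVs libraries 2 to 5, against 57.6, 60.4, 58.1 and 55.5 FPKM in PBS libraries 1 to 4. The sIVs values were below all PBS values in 3 of 4 libraries, with sIVs 3 inside the PBS range. Snrnp200 stood at 30, 29.4, 27.1 and 30 FPKM in sIVs libraries 2 to 5, against 30.9, 31.7, 32 and 29.6 FPKM in PBS libraries 1 to 4, and the groups overlapped. Both had a log2 fold change of -0.10 or -0.09, with an SE of 0.07 (adjusted p = 0.533 by edgeR for each).

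Rp9, whose product binds the kinase PIM1 and locates to nuclear speckles, had the fold change nearest to 0. It was measured at 7.44, 6.36, 7.76 and 7.50 FPKM in sIVs libraries 2 to 5 and at 7.26, 6.43, 7.34 and 8.14 FPKM in PBS libraries 1 to 4. Only sIVs library 3 lay outside the PBS range. The log2 fold change was -0.01 ± 0.10 (SE, adjusted p = 0.983 by edgeR), and its sign changed with the scaling, to 0.07 with library totals only. That scaling shifted the median of all tested genes to 0.07 as well.

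The photoreceptor-enriched genes separated the sIVs libraries from each other. Reep6, Fam161a and Impdh1 were far below every PBS library in sIVs libraries 3 and 4, and near or moderately below PBS in sIVs libraries 2 and 5. None passed the edgeR test.

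Reep6 encodes a protein of the endoplasmic reticulum that shapes membranes and is needed for rod survival in mice. Its levels were 187.6, 47.6, 44 and 152 FPKM in sIVs libraries 2 to 5, against 187.6, 179.2, 208.9 and 209.5 FPKM in PBS libraries 1 to 4. Relative to the mean of PBS it reached 0.243 in sIVs 3, 0.224 in sIVs 4 and 0.774 in sIVs 5, and it lay inside the PBS range in sIVs 2. The log2 fold change of -0.87 ± 0.43 (SE, adjusted p = 0.365 by edgeR) was the lowest of the 10, and was -0.22 ± 0.10 without sIVs libraries 3 and 4 (SE, adjusted p = 0.368 by edgeR).

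Fam161a encodes a microtubule-binding protein of the photoreceptor connecting cilium. It was measured at 58.6, 17.9, 16.5 and 39.6 FPKM in sIVs libraries 2 to 5, against 48.6, 52.4, 54.8 and 54.1 FPKM in PBS libraries 1 to 4. In sIVs, 3 of 4 libraries were below all PBS libraries, while sIVs 2 was above them all. The log2 fold change was -0.67 ± 0.35 (SE, adjusted p = 0.4 by edgeR). Without sIVs library 2 it was -1.09 ± 0.27 (SE, adjusted p = 0.0462 by edgeR), the only call among the 10 in any of the 20 alternatives. In that fit 1 of the 10 was called lower, against 2.56% of 17999 tested genes, and 0 were called higher, against 4.83%. Without sIVs libraries 3 and 4 it was -0.10 ± 0.12 (SE, adjusted p = 0.763 by edgeR), where 0 of the 10 and 0.0164% of 18261 genes were called in either direction.

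Impdh1 encodes inosine monophosphate dehydrogenase 1, which catalyses the rate-limiting step towards guanine nucleotides, the source of the cGMP used in phototransduction. It stood at 161, 66.4, 64.1 and 152.1 FPKM in sIVs libraries 2 to 5, against 158.8, 148.9, 151.7 and 151.5 FPKM in PBS libraries 1 to 4. Relative to the mean of PBS it was 1.05 in sIVs 2 and 0.995 in sIVs 5, but 0.435 in sIVs 3 and 0.42 in sIVs 4. The log2 fold change was -0.46 ± 0.29 (SE, adjusted p = 0.473 by edgeR), and 0.03 ± 0.07 without sIVs libraries 3 and 4 (SE, adjusted p = 0.893 by edgeR). Retinal and other isoforms of Impdh1, with 8 annotated coding transcripts in GENCODE M21, are summed in gene counts, as are the 6 of Reep6.

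Cerkl, which encodes a ceramide kinase-like protein, did not share this pattern fully. It was measured at 10.9, 6.93, 6.38 and 14.8 FPKM in sIVs libraries 2 to 5 and at 12.4, 12.5, 8.76 and 7.40 FPKM in PBS libraries 1 to 4. It was lowest in sIVs 3 and sIVs 4 but highest in sIVs 5, and PBS 1 and PBS 2 were above PBS 3 and PBS 4. Its log2 fold change was -0.08 ± 0.27 (SE, adjusted p = 0.917 by edgeR), and 0.32 ± 0.19 without sIVs libraries 3 and 4 (SE, adjusted p = 0.502 by edgeR). Exons of Cerkl overlap those of Itga4, an integrin gene on the opposite strand, over 1124 bases (21.3% of its exonic length), and those of Neurod1, a photoreceptor transcription factor gene on the same strand, over 201 bases. On the scale used for Cerkl, Itga4 averaged 10.2 FPKM in sIVs and 11 FPKM in PBS, near the level of Cerkl. Neurod1 was far more abundant, at 203.8 FPKM in sIVs and 213.3 FPKM in PBS. Reads of the shared bases could be assigned to either gene, so the level of Cerkl is uncertain.

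**Figure D2:**
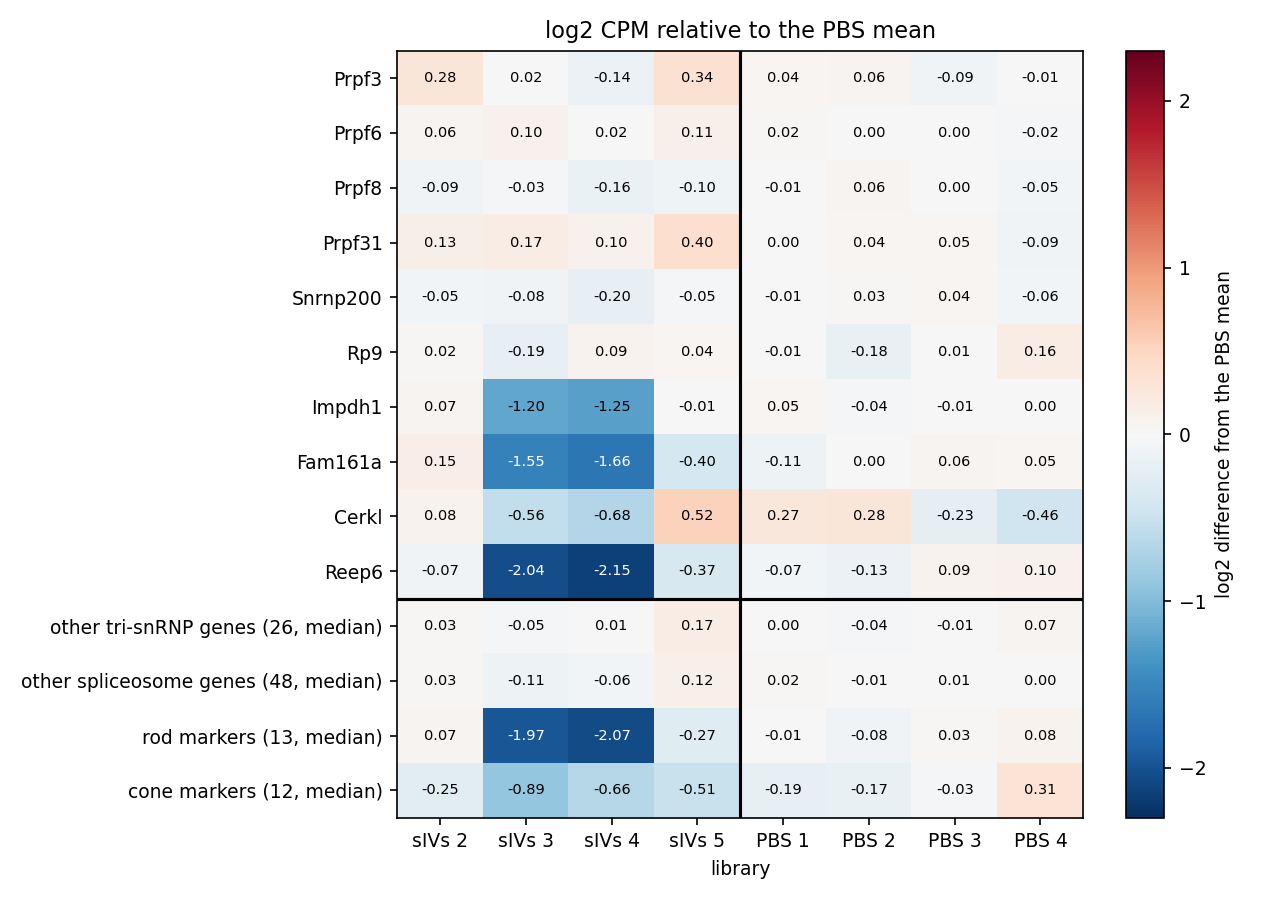
log2 CPM of each gene relative to its PBS mean, by library (columns, sIVs left of PBS), with the medians of 4 related gene lists below the line. Reep6 and the rod markers reach -2.15 and -2.07 in sIVs library 4, while no tri-snRNP gene goes beyond 0.40 in either direction.

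Set side by side, the photoreceptor-enriched genes stood well below the tri-snRNP genes in sIVs libraries 3 and 4. The mean log2 level of the 4 photoreceptor-enriched genes relative to PBS was 0.06, -1.34, -1.44 and -0.06 in sIVs libraries 2 to 5, and between -0.08 and 0.03 in PBS. The mean of the 5 tri-snRNP genes was 0.07, 0.03, -0.08 and 0.14 in sIVs libraries 2 to 5, and between -0.05 and 0.04 in PBS. The difference between these means was -0.01, -1.37, -1.36 and -0.21 in sIVs libraries 2 to 5, against -0.03 to 0.03 in PBS. Library sIVs 2 thus lay inside the PBS range. As an added description, the difference without Cerkl was -0.02, -1.63, -1.61 and -0.40 in sIVs libraries 2 to 5, against -0.09 to 0.10 in PBS. The mean edgeR log2 fold change of the photoreceptor-enriched genes differed from that of the tri-snRNP genes by -0.57 (and by -0.10 without sIVs libraries 3 and 4). No p is given for these sets, since their members were chosen.

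The spread between libraries also differed among the genes. The coefficient of variation of CPM over sIVs libraries was 3.08% for Prpf6, 3.62% for Prpf8 and 4.68% for Snrnp200, 9.72% for Prpf31 and 15.6% for Prpf3, where the median over all tested genes was 15.7%. It was 47.5% for Impdh1, 60.1% for Fam161a and 67.6% for Reep6 in sIVs, against 2.70%, 5.40% and 7.96% in PBS, where the median over all tested genes was 9.33%. Cerkl varied in both groups, at 40.2% in sIVs and 25% in PBS. The rod marker medians beside these values were 0.07, -1.97, -2.07 and -0.27 on the log2 scale in sIVs libraries 2 to 5. Rod transcripts were thus low in sIVs libraries 3 and 4, as were Reep6, Fam161a and Impdh1. In sIVs library 5, Impdh1 stood at -0.01. Medians of 24 genes of both photoreceptor types were 0.10, -1.48, -1.59 and -0.08 in sIVs libraries 2 to 5. What part photoreceptor content, or the other cell type marker sums given above, has in the levels of Reep6, Fam161a and Impdh1 was not tested.

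**Figure D3:**
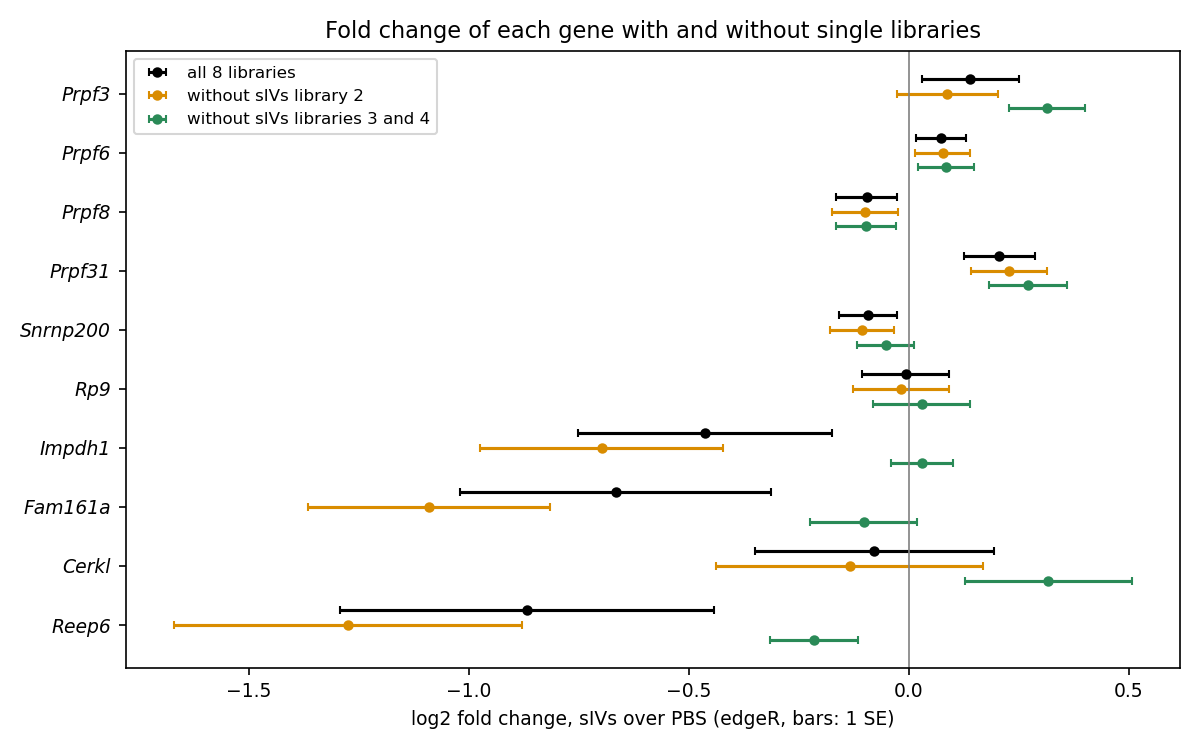
edgeR log2 fold change of each gene (sIVs over PBS, bars 1 SE) with all 8 libraries, without sIVs library 2 and without sIVs libraries 3 and 4. Reep6 moves between -1.28 and -0.22 and Impdh1 between -0.70 and 0.03, while Prpf6 and Prpf8 hardly move.

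The genes whose library profile was most like that of Reep6 were rod genes. The root mean square distance on the log2 scale over 8 libraries, searched among the 14038 protein-coding genes that averaged 1 CPM or more, was 0.07 for Pde6g, a rod phosphodiesterase subunit gene, 0.09 for Nrl, the rod fate transcription factor gene, and 0.10 for Slc24a1, a rod ion exchanger gene. Nrl stood at 1202, 269.7, 248.5 and 943.3 CPM in sIVs libraries 2 to 5 and at 1005 to 1207 CPM in PBS. Nearest to Fam161a were Fam3c at 0.06, the transducin subunit gene Gnb1 at 0.09 and Pitpnm3 at 0.09. Nearest to Impdh1 were Egflam, the gene of pikachurin at the photoreceptor synapse, at 0.03, the acyltransferase gene Agpat3 at 0.04 and the autophagy receptor gene Optn at 0.05. For comparison, Reep6 lay 0.26 from Fam161a, 0.46 from Impdh1 and 0.86 from Cerkl. Cerkl lay 0.36 from Prpf3, 0.38 from Snrnp200 and 0.40 from Prpf8, nearer than to Impdh1 at 0.42. It lay 0.43 from Prpf6, 0.43 from Prpf31, 0.46 from Rp9 and 0.65 from Fam161a. Likeness over 8 libraries, 2 of which stand apart, is a description only.

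Paralogs that serve wider tissues were tested in the same fit. Impdh2, the broadly expressed isozyme of Impdh1, stood at 36.3, 40.7, 41.9 and 53.3 CPM in sIVs libraries 2 to 5 and at 32.9 to 38.7 CPM in PBS (log2 fold change 0.23 ± 0.12 SE, adjusted p = 0.382 by edgeR). Impdh2 was above every PBS library in sIVs libraries 3, 4 and 5, and highest in sIVs 5, where Impdh1 was at 0.995 of its PBS mean. Reep5, a relative of Reep6, stood at 154.9, 188.2, 199 and 139.3 CPM in sIVs libraries 2 to 5 and at 156.7 to 178.4 CPM in PBS (log2 fold change 0.04 ± 0.11 SE, adjusted p = 0.888 by edgeR). Cerk, the ceramide kinase gene, had a log2 fold change of 0.14 ± 0.08 (SE, adjusted p = 0.422 by edgeR).

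Other genes of the spliceosome also had small fold changes. Of 26 further genes linked to the tri-snRNP or its U4/U6 and U5 parts, all were tested and 0 passed in either direction. Against -0.01 over all tested genes, their median log2 fold change was 0.05. The sign of that median turned to -0.03 without sIVs library 5, and the median was 0.11 without sIVs libraries 3 and 4. At an unadjusted p below 0.05, 1 of the 26 was higher, against 9.61% of all tested genes, and 1 lower, against 5.63%. These were Eftud2, the U5 GTPase gene, at 85.7 to 94 CPM in sIVs and 78.3 to 84.6 CPM in PBS (log2 fold change 0.16 ± 0.06 SE, adjusted p = 0.274 by edgeR), and Snrnp27, at -0.18 ± 0.07 (SE, adjusted p = 0.292 by edgeR). Of 48 other spliceosome genes 0 passed, 24 had positive and 24 negative fold changes, and the median was 0.002. Sf3b3, of the U2 particle, and Snrpa, of the U1 particle, had the smallest p among them, with log2 fold changes of 0.12 ± 0.06 and 0.15 ± 0.09 (SE, adjusted p = 0.373 and 0.433 by edgeR). Prpf4 and Dhx38, also linked to retinitis pigmentosa in humans, had log2 fold changes of -0.002 ± 0.09 and -0.03 ± 0.09 (SE, adjusted p = 0.994 and 0.907 by edgeR).

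A further list held 22 broadly expressed genes linked to retinitis pigmentosa, mostly through other tasks such as ciliary transport and dolichol synthesis. Of the 22, 0 passed and the median log2 fold change was -0.06. Of these, 4 were positive and 18 negative, where 49.0% of all tested genes were positive, and 3 of the 22 were lower at an unadjusted p below 0.05, against 5.63% of all tested genes. The sign of the median turned to 0.02 without sIVs libraries 3 and 4 and to 0.01 with library totals only, a scaling that also raised the median of all tested genes. Without sIVs libraries 3 and 4, the log2 fold changes of Bbs1 and Ttc8, described next, were -0.19 and -0.14. Bbs1 and Ttc8 encode subunits of the ciliary BBSome and had the smallest p. Bbs1 stood at 106.6, 78.1, 70.8 and 91.2 CPM in sIVs libraries 2 to 5, all below the PBS range of 106.7 to 124.4 CPM (log2 fold change -0.38 ± 0.12 SE, adjusted p = 0.213 by edgeR). Ttc8 stood at 108.3, 78.4, 69 and 81.8 CPM in sIVs libraries 2 to 5 and at 101.1 to 108.4 CPM in PBS (log2 fold change -0.31 ± 0.12 SE, adjusted p = 0.281 by edgeR). In 2 of the 22 genes all sIVs libraries were below all PBS libraries, against 3.36% of all tested genes.

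Of 15 genes of purine metabolism, mostly synthesis and salvage, the pathway of Impdh1, 0 passed and the median was 0.19. Fold changes were positive for 11 of the 15, where 49.0% of all tested genes were positive. At an unadjusted p below 0.05, 5 of the 15 were higher, against 9.61% of all tested genes, and 0 lower, against 5.63%. Without sIVs libraries 3 and 4 the median was 0.08, and the log2 fold changes of Atic and Aprt were 0.40 and 0.33. Atic, which completes the purine ring, stood at 24.5, 33.4, 36.2 and 32.3 CPM in sIVs libraries 2 to 5, against 22.7, 20.1, 19.3 and 23.6 CPM in PBS libraries 1 to 4 (log2 fold change 0.56 ± 0.13 SE, adjusted p = 0.16 by edgeR). All sIVs libraries were above all PBS libraries for Atic, as they were for 4 genes of the 15, against 4.42% of all tested genes. Aprt, an adenine salvage gene, had a log2 fold change of 0.54 ± 0.17 (SE, adjusted p = 0.21 by edgeR). Microglial marker sums moved with libraries sIVs 3 and sIVs 4 as given above, and their part in the purine genes was not tested.

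**Figure D4:**
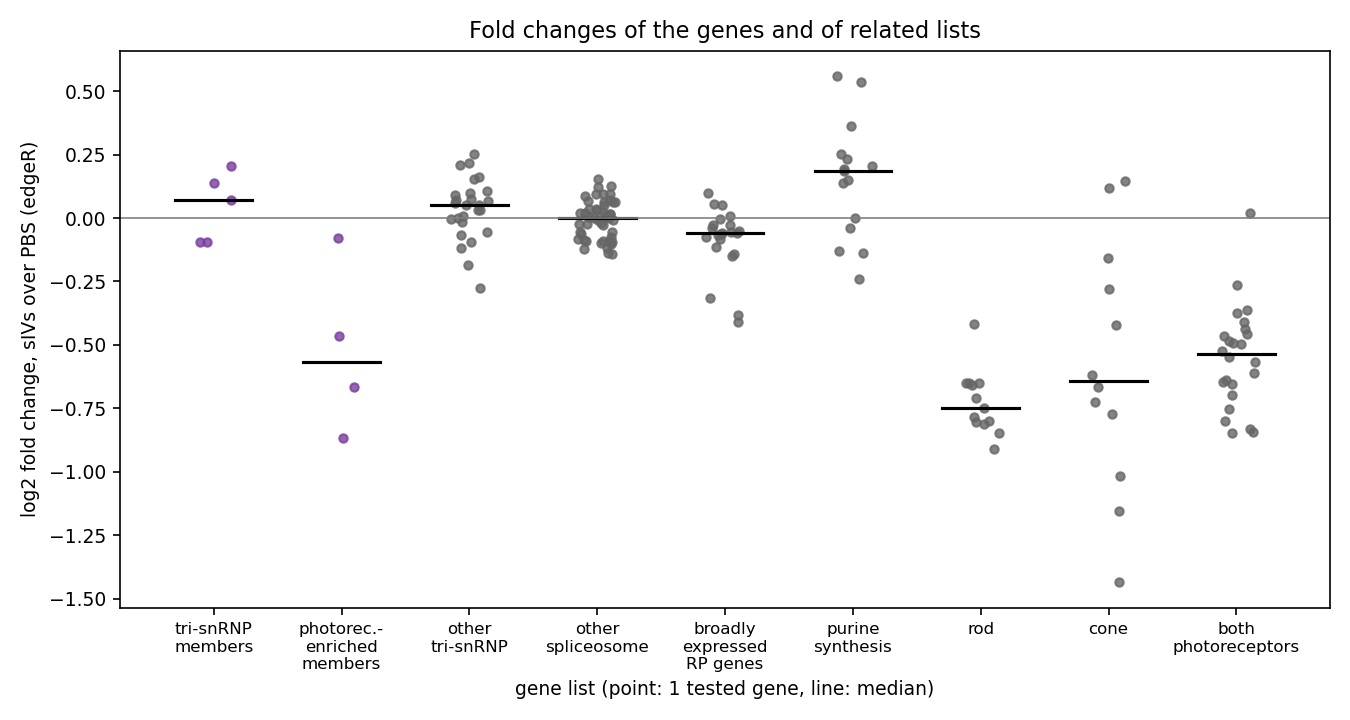
edgeR log2 fold change (sIVs over PBS) of each tested gene, by list, with a line at the list median. The photoreceptor-enriched genes spread from -0.87 to -0.08, across the range of rod genes (median -0.75) and above it. The 26 further genes linked to the tri-snRNP or its parts (labelled other tri-snRNP) lie between -0.28 and 0.25.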

How the data were processed

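Retinal RNA of 8 rd10 libraries was sequenced from poly(A)-selected, strand-marked libraries, per the labels' protocols. The submitters' processing notes name the mm10 build. The aligner, the counter, its strand setting and the annotation release are not stated in the labels. As deposited, the count table holds whole-number counts for 54532 genes. In the deposited FPKM table, each value equals the count scaled by gene length and library total, times 1 constant per library (0.930 to 1.03), within a tolerance of 0.1%. Coordinates and lengths of all 10 genes were identical to GENCODE M21 (GRCm38).

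Counts were fitted with edgeR 4.0.16 (R 4.3.3): filterByExpr retained 17725 genes, which were scaled by TMM and fitted with glmQLFit and glmQLFTest on the group, with Benjamini-Hochberg adjustment over all genes kept and a threshold of 0.05. SEs were derived from the F statistic. Log2 values relative to PBS use CPM plus 0.5. Biological variation estimated by edgeR was 22.3% among sIVs and 8.83% among PBS libraries. All pairs of libraries differed by more than sampling noise (lowest chi-square per gene 3.65). That lowest value was between sIVs 2 and PBS 1, against 3.84 or more between PBS libraries and 4.69 or more between sIVs libraries. Lists are described by counts and medians, with no set test.

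The 10 genes, the lists and the omission of sIVs libraries 3 and 4 were chosen with earlier results of these data known. Named besides the 10 were their paralogs, Prpf4 and Dhx38, the 2 genes of smallest p in each related list, a rod and a cone marker, and the 3 genes nearest in profile to Impdh1, Fam161a, Cerkl and Reep6. Neurod1 was chosen after its values were seen. Alternatives were DESeq2 1.42.0, limma-voom and limma (3.58.1) on log2(FPKM + 0.1) and log2(FPKM + 1), other scalings and filters, each library left out, and blocks by label numbers. One further named gene is not reported here. Protein lengths and identities were not analysed here.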

Additional observations from a re-analysis of the deposited data

How the results depend on the processing

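Over 20 alternatives for each of the 10 genes, 189 values kept their sign and their side of the threshold, 1 passed it and 10 changed sign, all in Rp9, Impdh1 and Cerkl. Those from settings other than a single library left out were 0.067 for Rp9 with library totals only, and 0.029, 0.030 and 0.32 for Rp9, Impdh1 and Cerkl without sIVs libraries 3 and 4. The other 6 changed sign with 1 library left out: Rp9 was 0.051 without PBS 4 and 0.049 without sIVs 3, and Cerkl was 0.024 without PBS 1, 0.030 without PBS 2, 0.052 without sIVs 3 and 0.078 without sIVs 4. Over all single omissions, log2 fold changes ran from -0.064 to 0.051 for Rp9 and from -0.36 to 0.078 for Cerkl. Calls among the 10 ran from 0 to 1 lower and stayed at 0 higher there, and calls over all genes from 0 to 870 higher and 0 to 461 lower, with every call made without sIVs library 2. Over all genes, DESeq2 called 447 higher and 89 lower, no filter gave 145 and 7, leaving out sIVs libraries 3 and 4 gave 2 and 1, and an adjusted p of 0.10 gave 10 and 1; the cause was not tested. The difference between photoreceptor-enriched and tri-snRNP genes ran from -0.84 to -0.38 with single libraries left out. It was -0.73 with the replicate block by biosample number and -0.91 with the block by title number. The title block kept only numbers present in both groups, so it left out sIVs library 5 and PBS library 1. With no block, the difference was already -0.73 without sIVs library 5. Neither block called any gene. Deviations of same-numbered libraries correlated between -0.07 and 0.11 by biosample number and between -0.06 and 0.06 by title number. Between libraries of unlike biosample number the correlations ran from -0.15 to 0.07. With so few pairs, these values cannot show whether the numbers pair the libraries. The order of levels was the same on FPKM recomputed from counts. Within each library this had to be so, since both scale the same counts by the same gene lengths. Library totals shifted the median of all genes to 0.07. Depth was lowest for Rp9 and Prpf3, with 359 to 764 counts per library.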

Other observations

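The profile of Cerkl across the 8 libraries was most like that of Itga4, the gene whose exons overlap it on the opposite strand (root mean square distance 0.07 on the log2 scale). Itga4 stood at 158.9, 108.4, 92.9 and 207.5 CPM in sIVs libraries 2 to 5 and at 173.8, 187.6, 139.1 and 117.6 CPM in PBS libraries 1 to 4. The next nearest genes, Ahr at 0.08 and Slc25a37 at 0.10, lie on chromosomes 12 and 14, away from Cerkl on chromosome 2. Ahr, the aryl hydrocarbon receptor gene, stood at 108, 63.6, 57.8 and 143.8 CPM in sIVs libraries 2 to 5, and Slc25a37, a mitochondrial iron importer gene, at 207.4, 127.8, 106.3 and 280.5 CPM. In PBS libraries 1 to 4 they stood at 112.3, 112.3, 85.2 and 62 CPM for Ahr and at 206.3, 223.8, 144.4 and 121.7 CPM for Slc25a37. All 4 genes were highest in sIVs library 5 and higher in PBS libraries 1 and 2 than in PBS libraries 3 and 4. Neurod1, which overlaps Cerkl on the same strand, shared these traits but differed in sIVs library 2. There Neurod1 lay above every PBS library, whereas the other 4 genes lay inside their PBS range. Neurod1 stood at 725.8, 363.2, 364 and 771.6 CPM in sIVs libraries 2 to 5 and 637.1, 651.2, 553.2 and 489.1 CPM in PBS libraries 1 to 4. Summed reactive glia markers (8 genes) were also higher in PBS libraries 1 and 2, at 903.6 and 889.4 CPM, than in PBS libraries 3 and 4, at 619.1 and 406.3 CPM, and stood at 904.4, 1918, 2065 and 1373 CPM in sIVs libraries 2 to 5. How much the shared bases or these other differences bear on Cerkl was not tested.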
